A study of Mus musculus with 40 samples.

Results

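Genes of the unfolded protein response were examined in whole brain RNA from 40 male C57BL/6J mice, each measured on 1 expression array. All probes whose gene symbol was Hspa5, Hsp90b1, Creld2, Chac1, Ddit3, Sdf2l1, Manf, Pdia4, Atf4 or Trib3 were taken, without regard to their values. Of these 10 genes 9 were on the array, with 11 of its 25697 probes, and Creld2 and Ddit3 had 2 probes each. Sdf2l1 had no probe under its symbol and is described here by its promoter alone. The mice were 9 weeks old and fell into 4 groups of 10, named by the diet of the mother and then by their own diet after weaning. HF_HF mice had mothers on a high-fat diet and were weaned onto the same diet, LF_HF mice had mothers on a low-fat, high-carbohydrate diet and were weaned onto the high-fat diet, HF_LF mice had mothers on the high-fat diet and were weaned onto the low-fat diet, and LF_LF mice received the low-fat diet throughout. Both diets drew their fat mainly from coconut oil, and mothers ate theirs before mating, through pregnancy and until weaning, so that exposure before and after birth cannot be told apart. Breeding took place in 12 cages, 6 on either maternal diet, and 5 of these supplied offspring to both post-weaning diets. Cage mates here are animals from the same breeding cage, whatever their housing after weaning. Because 1 male was placed with 2 females in a cage, they may have different mothers.

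The unfolded protein response raises the folding capacity of the endoplasmic reticulum (ER) when unfolded proteins collect there. Membrane sensors start it. ATF6, and IRE1 through splicing of the Xbp1 transcript, raise ER chaperones and folding enzymes, while PERK slows translation and raises ATF4, whose targets include Ddit3, Trib3 and Chac1. In the brain the response is studied in neurodegeneration and, in the hypothalamus, in diet-induced obesity. The 10 genes fall into both branches. Hspa5 (BiP) and Hsp90b1 (GRP94) are the main ER chaperones, Pdia4 is a disulfide isomerase, Creld2 and Manf are secreted or ER-resident proteins induced by ER stress, and Sdf2l1 works with BiP. Atf4 and Ddit3 (CHOP) are transcription factors, Trib3 is a pseudokinase that restrains both, and Chac1 degrades glutathione.

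The promoters show part of this division in sequence. The ER stress response element (ERSE), through which ATF6 and XBP1 act, consists of CCAAT, 9 bases and CCACG. It was searched for on both strands in RefSeq windows (build GRCm38.p6) from 250 bases before to 50 bases after each transcription start, which were given for 9 of the 10 genes (all but Manf). Of 32851 such windows in the genome 39 held it (0.119%), and 3 of those 39 belonged to Hspa5, Hsp90b1 and Creld2. The related ERSE-II (ATTGG, 1 base, CCACG; 0.0365% of windows) and the element TGACGTGG (0.676%) were in 0 of the 9 windows. The C/EBP-ATF response element TGATGNAA, a binding site of ATF4 dimers found in 3.97% of windows, was in those of Chac1 and Trib3, in Trib3 after the transcription start. The windows of Pdia4, Ddit3, Atf4 and Sdf2l1 held none of the 4 elements, which says only that these letters are not there. The windows of the 3 genes with an ERSE and of Chac1 are printed 5′ to 3′ on the strand of the gene, with the elements in capitals. They lie at chr2:34771840-34772139 (plus strand), chr10:86705395-86705694 (minus strand), chr15:88819396-88819695 (plus strand) and chr2:119350992-119351291 (plus strand).
Hspa5: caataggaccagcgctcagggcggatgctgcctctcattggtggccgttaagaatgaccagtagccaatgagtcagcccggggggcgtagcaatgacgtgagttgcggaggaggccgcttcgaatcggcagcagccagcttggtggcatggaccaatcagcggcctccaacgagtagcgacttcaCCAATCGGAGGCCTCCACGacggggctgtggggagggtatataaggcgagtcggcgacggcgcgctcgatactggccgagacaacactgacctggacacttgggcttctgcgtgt
Hsp90b1: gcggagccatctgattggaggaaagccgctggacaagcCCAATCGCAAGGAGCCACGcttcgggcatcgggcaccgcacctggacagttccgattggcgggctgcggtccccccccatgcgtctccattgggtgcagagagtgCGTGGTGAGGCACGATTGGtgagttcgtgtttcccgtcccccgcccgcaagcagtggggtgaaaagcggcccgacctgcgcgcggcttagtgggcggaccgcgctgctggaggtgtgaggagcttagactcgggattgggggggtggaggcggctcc
Creld2: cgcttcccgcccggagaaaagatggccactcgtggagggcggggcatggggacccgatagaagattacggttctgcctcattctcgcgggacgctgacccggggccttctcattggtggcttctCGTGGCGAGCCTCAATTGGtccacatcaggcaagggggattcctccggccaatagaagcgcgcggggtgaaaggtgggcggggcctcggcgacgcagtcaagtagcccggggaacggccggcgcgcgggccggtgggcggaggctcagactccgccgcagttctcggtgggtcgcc
Chac1: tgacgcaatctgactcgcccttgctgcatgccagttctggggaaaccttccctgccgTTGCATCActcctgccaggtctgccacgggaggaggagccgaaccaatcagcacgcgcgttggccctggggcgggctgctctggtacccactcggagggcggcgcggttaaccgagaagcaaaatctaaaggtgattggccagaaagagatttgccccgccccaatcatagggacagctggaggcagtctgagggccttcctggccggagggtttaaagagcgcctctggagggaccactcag
Hsp90b1 held the ERSE in both orientations, ending 194 and 89 bases before the start. In Hspa5 it ran with the gene and ended 47 bases before the start, and in Creld2 it ran against the gene and ended 108 bases before it.

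Levels are log2 of the deposited fluorescence intensity, and levels of different probes cannot be compared. A probe was kept for testing if it exceeded the background of its array, set from probes for olfactory, vomeronasal and taste receptors, in at least 20 of the 40 arrays. This left 14381 probes, among them 10 of the 11 probes and 8 of the 9 genes. Manf was dropped, since its probe was above background in 1 of 40 arrays (5.93 to 6.42), and Trib3 was kept narrowly, above background in 26 (6.13 to 6.71). As checks on the tissue, the probes for the myelin gene Mbp, the synaptic gene Syt1 and the astrocyte gene Gfap were above background in all 40 arrays, while the probe for the neuronal gene Snap25 was above it in 0. The arrays also varied together. A single principal component held 54.8% of the variance of the kept probes, and its scores split the arrays at a gap into 25 with low and 15 with high scores (6, 8, 6 and 5 arrays with low scores in HF_HF, LF_HF, HF_LF and LF_LF). Its mean score was 0.10 in HF_HF, -0.40 in LF_HF, 0.10 in HF_LF and 0.19 in LF_LF (SD 0.71 to 1.18, n = 10 each), and its relation to diet was not tested. In whole tissue, a change in the number of cells of one type and a change in RNA per cell cannot be told apart.

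Among the ER chaperones, Hspa5 had the widest spread. Its probe was dim, with group median intensities of 119.05 to 129.75 and a lowest value of 90.2. The probe was above background in all 40 arrays, but with array backgrounds of 81.6 to 90.9 its low values lay close to it. Its lowest, median and highest levels were 6.53, 6.93 and 8.33 in HF_HF, 6.63, 7.0 and 7.65 in LF_HF, 6.61, 6.90 and 8.11 in HF_LF, and 6.50, 7.02 and 8.55 in LF_LF. The 4 groups overlapped over most of their range. The highest values were 8.11 to 8.55 in the other groups but 7.65 in LF_HF, which had the smallest SD (0.31, against 0.57 to 0.78). Its SD within groups was 0.60, above that of 96.7% of the kept probes, and its intensity spanned 4.16-fold. The 15 arrays with high component scores had Hspa5 at 6.67 to 8.55 (median 7.81), against 6.50 to 7.21 (median 6.88) in the 25 with low scores. Within those 15 arrays Hspa5 followed the component closely (r = 0.95, permutation p = 5e-05; rho = 0.90, p = 5e-05; r = 0.91 without the 2 most extreme arrays), and within the 25 it did not pass (r = 0.30, permutation p = 0.209; rho = 0.36, p = 0.112). The largest of its differences between groups was -0.38 (SE 0.25, unadjusted p = 0.135) in LF_HF against LF_LF, with 9 of 10 LF_HF animals below the LF_LF mean. This difference turned on single cages. It was -0.08 without cage 4 and -0.61 (unadjusted p = 0.0392) without cage 11, and between LF_HF and LF_LF mates of the same cage it was -1.11 in cage 4 and 0.44 in cage 11.

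Hsp90b1, the ER member of the HSP90 family, was steadier. Its lowest, median and highest levels were 11.33, 11.64 and 11.98 in HF_HF, 11.34, 11.53 and 12.01 in LF_HF, 11.09, 11.45 and 11.97 in HF_LF, and 11.00, 11.53 and 12.21 in LF_LF. The groups overlapped throughout, and its differences ran between 0.06 and 0.13. The difference in LF_HF against LF_LF was 0.13 but came to 0.29 (unadjusted p = 0.000703) with the first component as a covariate and to 0.30 (unadjusted p = 0.0307) without cage 4, and that in HF_HF against LF_HF turned to -0.03 with the component. It followed the component in the arrays with low scores (r = 0.57, permutation p = 0.007) and in those with high scores (r = 0.64, permutation p = 0.0278, and r = 0.36 without the 2 most extreme arrays).

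Creld2, a cysteine-rich ER protein with disulfide isomerase activity, was highest in LF_HF with both of its probes. The probe ILMN_2757368 had its lowest, median and highest levels at 8.03, 8.41 and 8.85 in HF_HF, 8.54, 8.75 and 9.13 in LF_HF, 8.08, 8.41 and 8.92 in HF_LF, and 8.16, 8.53 and 8.78 in LF_LF. LF_HF stood highest, and 7 of 10 HF_HF animals lay below every LF_HF animal. The probe ILMN_2983948 had 8.26, 8.51 and 9.04 in HF_HF, 8.35, 8.82 and 9.18 in LF_HF, 8.14, 8.39 and 8.91 in HF_LF, and 8.34, 8.57 and 8.99 in LF_LF. LF_HF again had the highest median, with more overlap (3 HF_HF animals below every LF_HF animal).

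Pdia4 resembled Creld2 in the offspring of low-fat mothers. Its lowest, median and highest levels were 8.45, 8.76 and 9.10 in HF_HF, 8.73, 8.91 and 9.07 in LF_HF, 8.25, 8.69 and 8.93 in HF_LF, and 8.50, 8.66 and 8.94 in LF_LF. LF_HF was again the highest and also the tightest group (SD 0.10, against 0.16 to 0.21 in the others), and 5 of its 10 animals exceeded every LF_LF animal.

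In the PERK branch, the group means of Chac1 were ordered by post-weaning diet. Its lowest, median and highest levels were 9.48, 9.64 and 9.88 in HF_HF, 9.21, 9.57 and 9.74 in LF_HF, 9.15, 9.41 and 9.84 in HF_LF, and 9.22, 9.36 and 9.57 in LF_LF. Both groups on the high-fat diet had higher means than both groups on the low-fat diet, and neighbouring groups overlapped. With cage as a fixed block, the difference by post-weaning diet was 0.01 in the offspring of low-fat mothers and 0.06 in those of high-fat mothers. Atf4, the factor that drives Chac1, ran from 9.58 to 10.17 over all 40 arrays with differences between -0.03 and 0.09, and Trib3 differed by at most 0.05 in size.

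The 2 probes of Ddit3, the pro-apoptotic factor CHOP, gave different pictures. The probe ILMN_2652909 had its lowest, median and highest levels at 8.17, 8.57 and 9.13 in HF_HF, 8.60, 8.79 and 9.04 in LF_HF, 8.15, 8.61 and 8.99 in HF_LF, and 7.91, 8.60 and 9.08 in LF_LF. LF_HF was the narrowest group and lay in the upper part of the range of the others. The probe ILMN_2927373 ran from 7.84 to 8.41 over all arrays and differed between groups by no more than 0.09 in size. The probes were alike within each set of arrays (r = 0.74 over the 25 and 0.82 over the 15, group means removed). In the 15 arrays with high scores both were low where Hspa5 was high (ILMN_2652909 r = -0.76, permutation p = 0.00135; rho = -0.72, p = 0.00545; r = -0.70 without the 2 most extreme arrays, and ILMN_2927373 r = -0.64, permutation p = 0.023; rho = -0.55, p = 0.0612; r = -0.46 without the 2), and both ran against the component itself there (r = -0.86 and -0.76). Within those 15 arrays the part of the component in this was not tested. Over all arrays, with group means removed, ILMN_2652909 had r = -0.75 with Hspa5, and -0.10 with the component removed as well. For ILMN_2927373 these values were 0.12 and -0.37. In the 25 the relation to Hspa5 did not pass (r = 0.05 and 0.21, permutation p = 0.829 and 0.336).

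**Figure D1:**
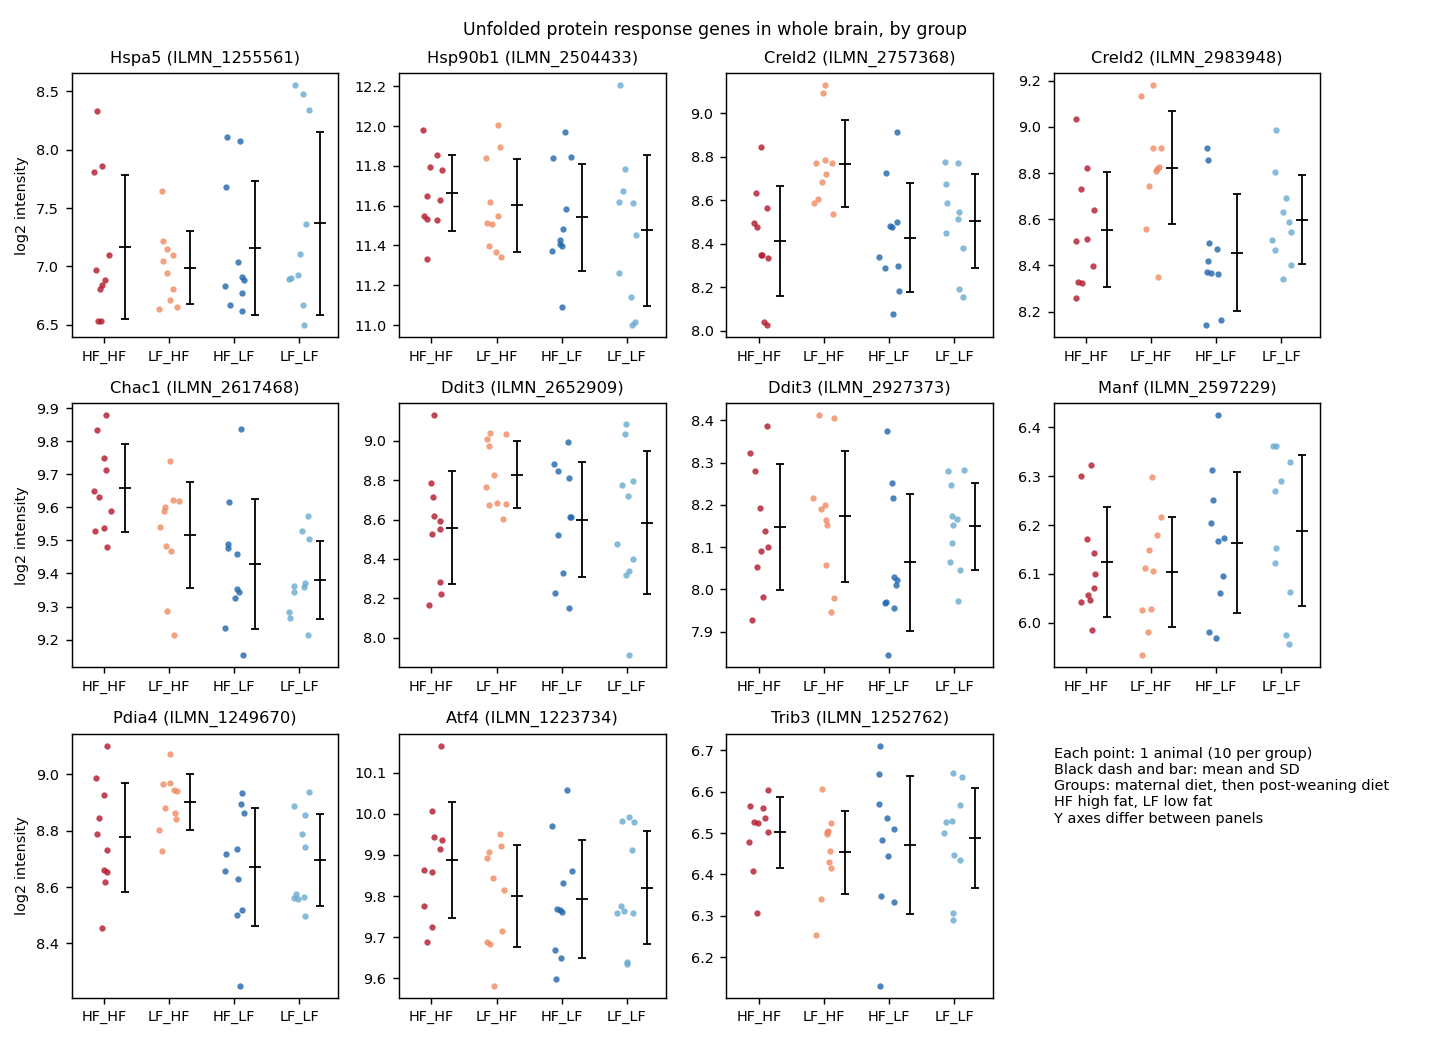
Log2 intensity of the 11 probes in the 4 groups, 1 point per animal (n = 10 per group), with the mean and SD in black and a separate axis for each probe. LF_HF is highest for both Creld2 probes and for Pdia4, HF_HF is highest for Chac1, and Hspa5 has a tail of high values in HF_HF, HF_LF and LF_LF but reaches only 7.65 in LF_HF.

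Maternal diet was compared first in mice fed the low-fat diet. None of the 14381 probes passed a false discovery rate of 0.05 in HF_LF against LF_LF (0%, limma with Benjamini-Hochberg adjustment), and 198 had an unadjusted p under 0.05 (1.38%, with 0.834% higher and 0.542% lower in HF_LF), of which 0 belonged to the 10 probes. Creld2 (ILMN_2983948) came nearest at -0.14 (SE 0.098, unadjusted p = 0.163, adjusted p = 1.00), and it was -0.25 (unadjusted p = 0.00664) without cage 1, a source of HF_LF animals, and -0.04 without cage 4, a source of LF_LF animals. Of the 10 probes 3 were higher and 7 lower, with a median of -0.03, against a median of 7.92e-05 over all probes.

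In mice fed the high-fat diet, maternal diet gave the largest Creld2 difference of the study. Creld2 (ILMN_2757368) averaged 8.41 ± 0.25 in HF_HF and 8.77 ± 0.20 in LF_HF (SD, n = 10 each), a difference of -0.36 (SE 0.098), or 1.28-fold lower in HF_HF, with 9 of 10 animals below the LF_HF mean. Its unadjusted p of 0.00148 was the 13th smallest of all probes, but the adjusted p was 0.853. These fits take animals as the unit, although maternal diet was set by breeding cage. With cage means as the unit the difference was -0.44 (unadjusted p = 0.00893, adjusted p = 0.720). The other Creld2 probe averaged 8.56 ± 0.25 in HF_HF and 8.82 ± 0.25 in LF_HF (difference -0.27, SE 0.11, unadjusted p = 0.0192). Without cage 4 or cage 21 this was -0.18 with each (unadjusted p = 0.0913 and 0.138), and with cage means it was -0.35 (unadjusted p = 0.0357). Ddit3 (ILMN_2652909) averaged 8.56 ± 0.29 in HF_HF and 8.83 ± 0.17 in LF_HF (difference -0.27, SE 0.10, unadjusted p = 0.015), while its other probe differed by -0.02. With the first component as a covariate, ILMN_2652909 differed by -0.18 (unadjusted p = 0.0388). Chac1 ran the other way, at 9.66 ± 0.13 in HF_HF and 9.52 ± 0.16 in LF_HF (difference 0.14, SE 0.068, unadjusted p = 0.0469). Over all probes 0 passed adjustment (0%), and 637 (4.43%) had an unadjusted p under 0.05, 3.21% lower and 1.22% higher in HF_HF. Among the 10 probes 3 lower and 1 higher reached that level. The median of the 10 was 0.01, against -0.02 over all probes, and it moved to -0.08 with the first component as a covariate. Markers of blood and neutrophils were lower in HF_HF for 5 of 5 kept genes (median -0.34, summed intensity 4546 to 9781 in HF_HF and 5792 to 16458.5 in LF_HF), oligodendrocyte markers for 6 of 6 (median -0.09) and choroid plexus markers were higher for 8 of 8 (median 0.19), and their part in these differences was not tested.

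In the offspring of low-fat mothers, Creld2, Pdia4 and Chac1 were higher on the high-fat diet without passing adjustment, and this comparison shares the LF_HF animals with the preceding one. Pdia4 averaged 8.90 ± 0.10 in LF_HF and 8.70 ± 0.16 in LF_LF (difference 0.20, SE 0.064, unadjusted p = 0.0043, higher in 10 of 10 animals than the LF_LF mean), and with cage as a fixed block the difference was 0.14 (unadjusted p = 0.151). Creld2 averaged 8.77 ± 0.20 in LF_HF and 8.51 ± 0.22 in LF_LF with ILMN_2757368 (difference 0.26, SE 0.091, unadjusted p = 0.00849, 10 of 10 animals). With ILMN_2983948 it averaged 8.82 ± 0.25 in LF_HF and 8.60 ± 0.19 in LF_LF (difference 0.23, SE 0.096, unadjusted p = 0.0278, 8 of 10 animals). Chac1 averaged 9.52 ± 0.16 in LF_HF and 9.38 ± 0.12 in LF_LF (difference 0.14, SE 0.065, unadjusted p = 0.0495), and with cage as a fixed block the difference was 0.01 (unadjusted p = 0.939). The adjusted p was 0.717 for each of these differences over all animals. Of all probes 0 passed (0%), and 793 (5.51%) had an unadjusted p under 0.05, 4.12% higher and 1.4% lower in LF_HF. Of the 10 probes 4 reached that level, all higher, and the median of the 10 was 0.13, against 0.03 over all probes. Microglial markers were higher in LF_HF for 6 of 7 genes (median 0.17, summed intensity 3283 to 4176 in LF_HF and 2847 to 3772 in LF_LF). Markers of blood and neutrophils were higher for 4 of 5 (median 0.13, summed intensity 5792 to 16458.5 in LF_HF and 5689 to 12160 in LF_LF). Endothelial markers were higher for 3 of 5 (median 0.10). An unadjusted p under 0.05 was reached by 3 microglial, 3 blood and neutrophil and 2 endothelial genes, all higher. Oligodendrocyte markers were lower for 6 of 6 (median -0.14, summed intensity 26458 to 39228.5 in LF_HF and 26098 to 40383 in LF_LF) and choroid plexus markers for 8 of 8 (median -0.49, summed intensity 879 to 24694 in LF_HF and 1290.3 to 26659 in LF_LF). Their part in these differences was not tested.

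In the offspring of high-fat mothers, Chac1 was the member that differed most by post-weaning diet. It averaged 9.66 ± 0.13 in HF_HF and 9.43 ± 0.20 in HF_LF (SD, n = 10 each), a difference of 0.23 (SE 0.076), or 1.17-fold, with 10 of 10 HF_HF animals above the HF_LF mean. The unadjusted p of 0.00594 was the 16th smallest of all probes and the adjusted p was 1.00. With cage as a fixed block the difference was 0.06 (unadjusted p = 0.531), it was -0.11 between mates of cage 23, and without cage 23 it was 0.38. Creld2 differed by -0.02 with ILMN_2757368 and 0.10 with ILMN_2983948 (0.01 and 0.27 with cage as a fixed block), and Pdia4 by 0.11 (SE 0.089). Of all probes 0 passed adjustment (0%, smallest adjusted p = 0.0889 for a gene outside the group studied here), and 173 (1.2%) had an unadjusted p under 0.05, against 1 of the 10 probes. Immediate early genes were higher in HF_HF for 9 of 9 (median 0.18, summed intensity 8459 to 19205 in HF_HF and 8091 to 15896 in HF_LF). Oligodendrocyte markers were lower for 6 of 6 (median -0.15, summed intensity 21258.5 to 41496 in HF_HF and 20093 to 42238 in HF_LF), and the part of either was not tested.

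Whether the effect of post-weaning diet depended on the mother's diet was tested by the interaction, in which 0 of 14381 probes passed (0%) and 138 (0.96%, with 0.334% positive and 0.626% negative) had an unadjusted p under 0.05, 0 of them among the 10. Creld2 (ILMN_2757368) came nearest at -0.28 (SE 0.14, unadjusted p = 0.0582, adjusted p = 0.998), with -0.13 (SE 0.15) for its other probe. With single cages left out, the value for ILMN_2757368 ran from -0.36 (unadjusted p = 0.0176) without cage 12 to -0.18 (unadjusted p = 0.189) without cage 1. With cage means it was -0.37. For Chac1 it was 0.09 (SE 0.099, 95% interval -0.11 to 0.29), and 0.24 (unadjusted p = 0.0171) without cage 23.

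**Figure D2:**
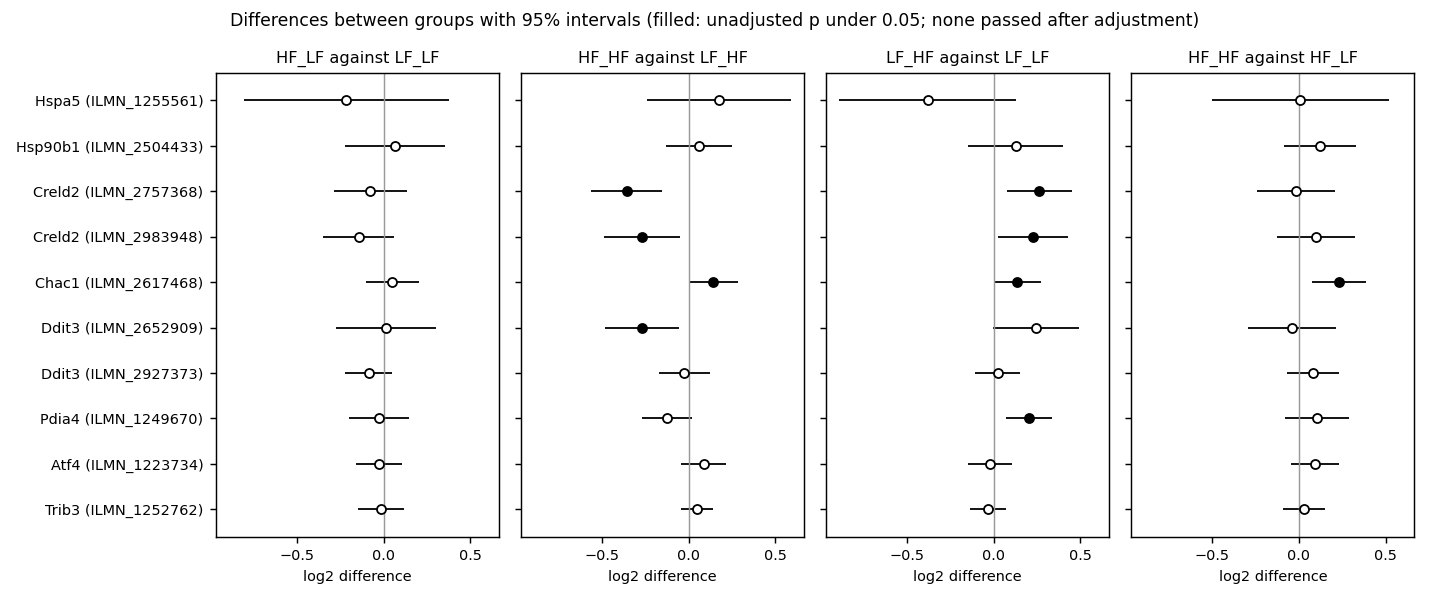
Log2 differences of the 10 tested probes in the 4 comparisons, with 95% intervals. Filled points, with an unadjusted p under 0.05, are the 2 Creld2 probes, Chac1 and Ddit3 (ILMN_2652909) in HF_HF against LF_HF, the 2 Creld2 probes, Chac1 and Pdia4 in LF_HF against LF_LF, and Chac1 in HF_HF against HF_LF, and none passed adjustment.

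The wider pathway was followed through 7 lists of 140 genes, of which 120 were on the array and 96 were kept. In each of the 5 tests 0 of the 96 passed adjustment. At an unadjusted p under 0.05 there were 1 of 96 in HF_LF against LF_LF (1.04%, against 1.38% of all probes), 5 in HF_HF against LF_HF (all lower, 5.21% against 4.43%), 8 in LF_HF against LF_LF (4 higher and 4 lower, 8.33% against 5.51%) and 2 in HF_HF against HF_LF (1 each way, 2.08% against 1.2%), and 0 in the interaction (0% against 0.96%). The 3 genes with the smallest p in each comparison are named here. In HF_LF against LF_LF they were Syvn1, an ER-associated ubiquitin ligase (-0.18, SE 0.063), Xbp1, the transcription factor of the IRE1 branch (-0.14, SE 0.069), and Nars (0.10, SE 0.050), an aminoacyl-tRNA synthetase. In HF_HF against LF_HF they were Xbp1 (-0.18, SE 0.078), the disulfide isomerase Pdia5 (-0.16, SE 0.068) and the stress gene Gadd45a (-0.24, SE 0.11). In LF_HF against LF_LF they were Gadd45a (0.26, SE 0.079), the pro-apoptotic gene Bbc3 (-0.18, SE 0.058) and Cdk5rap3 (-0.16, SE 0.054). In HF_HF against HF_LF they were Aldh18a1, an enzyme of proline synthesis (0.13, SE 0.060), Ddit4, an inhibitor of mTORC1 signalling (-0.28, SE 0.13), and the amino acid transporter Slc7a5 (-0.11, SE 0.054). In the interaction they were Gadd45a (-0.25, SE 0.14), Sec24d (0.27, SE 0.15) and Pdia5 (-0.18, SE 0.11). Of the 16 kept ER chaperones and folding enzymes outside the 10 genes, 12 were lower and 4 higher in HF_HF than in LF_HF (median -0.08, against -0.02 over all probes), and 13 were above and 3 below their LF_LF mean in LF_HF (median difference 0.05, against 0.03), 1 reaching an unadjusted p under 0.05 in each. The 9 kept genes of eIF2alpha phosphorylation were lower in HF_HF than in LF_HF for 9 of 9 (median -0.09) and higher in LF_HF than in LF_LF for 9 of 9 (median 0.10), none of them at an unadjusted p under 0.05. Eif2ak3, the gene of PERK, was not among these 9 and was counted with the sensors and transcription factors. Of the 10 kept genes of that list, 4 were higher and 6 lower in each of these 2 comparisons (medians -0.03 and -0.02). Over all probes 42.2% were higher in HF_HF than in LF_HF and 62.0% were higher in LF_HF than in LF_LF, the comparisons share LF_HF, and the mean component score was lowest in LF_HF. The part of the component in these counts was not tested. The 19 ATF4 targets of amino acid supply divided nearly evenly in all 4 comparisons, with medians of -0.02 to 0.02.

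More structure appeared among animals within groups. With group means removed, the level of Creld2 (ILMN_2983948, its probe of higher mean, as for the other anchor genes, taken as an anchor after its values were seen) was followed by 5 of 14380 probes at a false discovery rate of 0.05 (0.0348%, and 0.0209% positively). They were its own other probe (r = 0.76, slope 0.74, SE 0.11, adjusted p = 0.000267), Xbp1 (r = 0.77, slope 0.54, SE 0.079, adjusted p = 0.000245) and the clock gene Per1 (r = 0.66, adjusted p = 0.0241), which ran with it, and the cold-inducible RNA-binding protein gene Cirbp (r = -0.75, slope -0.68, SE 0.10, adjusted p = 0.000444) and 1 probe without a gene name, which ran against it. Xbp1, which relays ER stress from IRE1 and whose product binds the ERSE, had the highest r with this probe among the 14380 (rho = 0.74; permutation p = 1e-05 for r and for rho, the smallest that 100000 permutations can give; r = 0.72 without the 2 most extreme animals). With the other Creld2 probe it had r = 0.58, below the 0.77 of Pdia3. The Xbp1 probe gives the level of the transcript, and its splicing by IRE1 was not measured. Pdia4 was among the 10 closest (r = 0.60, permutation p = 0.00012; rho = 0.58, p = 0.00021; r = 0.52 without the 2 most extreme animals), but its slope did not pass over all probes (adjusted p = 0.0992). The disulfide isomerase Pdia3 was likewise close (r = 0.59, permutation p = 0.0001, adjusted p = 0.0992). With the first component as a covariate the slope of Pdia4 on Creld2 was 0.43 (adjusted p = 0.00368).

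The correlations were also taken within each set of arrays. Xbp1, Pdia3 and Cirbp were singled out after their values over all arrays were seen, and both sets are part of those arrays. Their correlations within the sets are thus no independent repeat, and their permutation p-values do not allow for this choice. In the 25 arrays with low scores, Creld2 (ILMN_2983948) correlated with its other probe at r = 0.85, with Xbp1 at 0.77, with Pdia3 at 0.69, with Pdia4 at 0.66, with Hsp90b1 at 0.53 and with Cirbp at -0.77 (permutation p of 1e-05, 0.00017, 0.00012, 0.0008, 0.00529 and 6e-05). In the 15 arrays with high scores the same correlations were 0.90, 0.85, 0.74, 0.64, 0.41 and -0.79 (permutation p of 0.0008, 0.00215, 0.0296, 0.0445, 0.176 and 0.00725), of which Hsp90b1 did not pass and Pdia4 rested on 2 animals (0.25 without them; rho = 0.53, p = 0.0852). For Pdia3 the rank correlation did not pass in this set (rho = 0.57, p = 0.0722; r = 0.43 without the 2 most extreme animals). These were among 30 relations computed in each set. The Creld2 probe ILMN_2757368 gave 0.76 with Pdia4, 0.74 with Xbp1 and -0.76 with Cirbp over the 25 arrays, and 0.68, 0.77 and -0.78 over the 15. For Hspa5, the chaperone whose promoter also holds the ERSE and whose probe was dim, the relation did not pass. Its correlation with Creld2 (ILMN_2983948) was 0.18 over the 25 arrays (permutation p = 0.402) and 0.30 over the 15 (permutation p = 0.347).

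These permutations ran within groups and did not keep cage mates together, so the correlations were repeated, after the data had been seen, with the mean of each cage within a group removed (17 such sets of animals) and permutation within them. Creld2 (ILMN_2983948) then had r = 0.54 with Xbp1 (permutation p = 0.0318; rho = 0.45; r = 0.42 without the 2 most extreme animals), while its correlations with Pdia3 (0.26, p = 0.326), Pdia4 (0.19, p = 0.402) and Cirbp (-0.11, p = 0.762) did not pass by permutation. Its other probe, ILMN_2757368, had r = 0.57 with Pdia3, 0.54 with Pdia4 and -0.56 with Cirbp (permutation p of 0.0145, 0.00444 and 0.034) and 0.21 with Xbp1 (permutation p = 0.598). The 2 Creld2 probes had r = 0.48 with each other (permutation p = 0.15), and 0.07 without the 2 most extreme animals. That probe also had r = -0.50 with Hspa5 and 0.52 with Ddit3 (ILMN_2652909; permutation p of 0.00166 and 0.00056), against -0.02 and -0.00084 with ILMN_2983948, and the sets with high and low component scores are pooled in these values. With cage means removed, relations that passed with 1 Creld2 probe did not pass with the other, a difference that was not tested, and the p-values are not adjusted over the 12 relations computed for each probe.

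**Figure D3:**
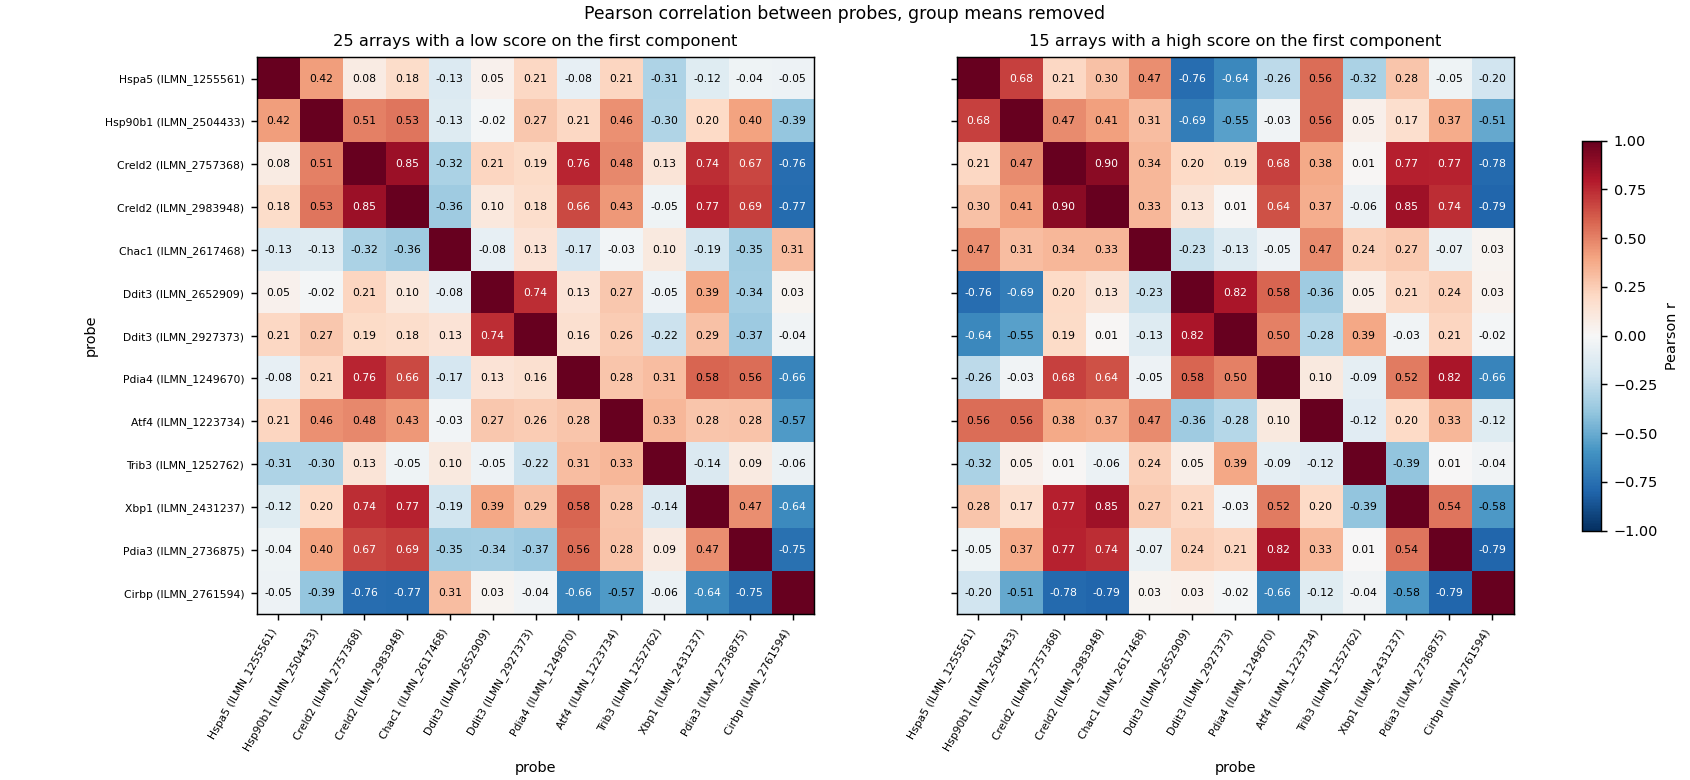
Pearson correlations between the 10 tested probes and 3 further genes (Xbp1, Pdia3 and Cirbp, added after their values were seen), with group means removed, over the 25 arrays with low and the 15 with high scores on the first component. In both panels the 2 Creld2 probes, Pdia4, Xbp1 and Pdia3 form a positive block that Cirbp opposes, while the 2 Ddit3 probes run against Hspa5 only in the right panel.

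The pathway lists were set against Creld2 in the same way, with group means removed, as a description. Above the r of 0.27 that marked the 95th percentile of all probes lay 4 of 16 ER chaperones and folding enzymes, 3 of 10 sensors and transcription factors, 3 of 11 stress and death targets of ATF4 and CHOP, and 1 of 11 genes of ER-associated degradation (Herpud1, r = 0.46). None of 9 genes of eIF2alpha phosphorylation, 20 of ER translocation and export, and 19 ATF4 targets of amino acid supply lay there. Outside the ER, 5 of 11 cytosolic heat shock genes (Hspb1 highest, r = 0.61) and 5 of 9 immediate early genes (Arc highest, r = 0.45) were above it too.

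Chac1 had no relation that passed with Hspa5 or Creld2 in either set of arrays. Over the 25 arrays with low scores its correlations were -0.13 with Hspa5 (permutation p = 0.536), -0.36 with Creld2 (ILMN_2983948, permutation p = 0.136) and -0.03 with Atf4. Over the 15 with high scores they were 0.47 (permutation p = 0.128), 0.33 (permutation p = 0.32) and 0.47. With group means removed over the 40 arrays, its level was followed by 6 probes (0.0417%), 4 positively (0.0278%; Plcd3, r = 0.70; Lmna, 0.66; Shisa5, 0.66; Git1, 0.65) and 2 negatively, the mitochondrial serine transporter gene Sfxn1 (-0.67) and Ddit4 (-0.62), with adjusted p of 0.0215 to 0.0493. Ddit4, itself an ATF4 target, was thus lower where Chac1 was higher. The 10 closest probes were 2 probes each of Shisa5 and Git1 and 1 each of Plcd3, Lmna, Ipcef1, Sypl2, Fam189a1 and Mtus2 (r = 0.60 to 0.70), and none of them is in the lists of the pathway. Oligodendrocyte markers were all negatively related to Chac1 (6 of 6, r = -0.44 to -0.31), as were choroid plexus markers (8 of 8, r = -0.44 to -0.33), against a median of 0.02 over all probes, and their part was not tested.

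The slope on Hspa5 was of another kind, since 8947 of 14380 probes passed (62.2%, and 18% positively), and 186 did with the first component as a covariate. Of the other 9 member probes Hsp90b1 and Atf4 passed positively and Ddit3 (ILMN_2652909) and Pdia4 negatively, and none of these did so with the component as a covariate. The component itself was followed by 68.4% of all probes (19.9% positively). The 10 probes closest to Hspa5 were those of Slc12a5, Clta, Sprr2a1, Rraga, Tma7, Ywhaz, Nono, Slc3a2, Rad21 and Hsp90aa1, and of these Slc3a2, an amino acid transporter subunit, is in a pathway list and Hsp90aa1 is a cytosolic chaperone. Their correlations are not given over the 40 arrays, which fall into the sets described. With the component removed, Rad21, Slc12a5, Tspan13, Bex1 and Laptm4b were closest (r = 0.86 to 0.88). Of the ER chaperones outside the 10 genes, 0 of 16 then lay above the 95th percentile of all probes (r = 0.32). Above it lay 5 of 20 genes of ER translocation and export (Spcs2 highest, r = 0.75). So did 3 of 11 genes of ER-associated degradation (Ube2j1 highest, r = 0.49) and 3 of 11 cytosolic heat shock genes. The counts were 2 of 19 ATF4 targets of amino acid supply and 1 of 10 sensors and transcription factors. None of the 9 genes of eIF2alpha phosphorylation or 11 stress and death targets lay there.

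**Figure D4:**
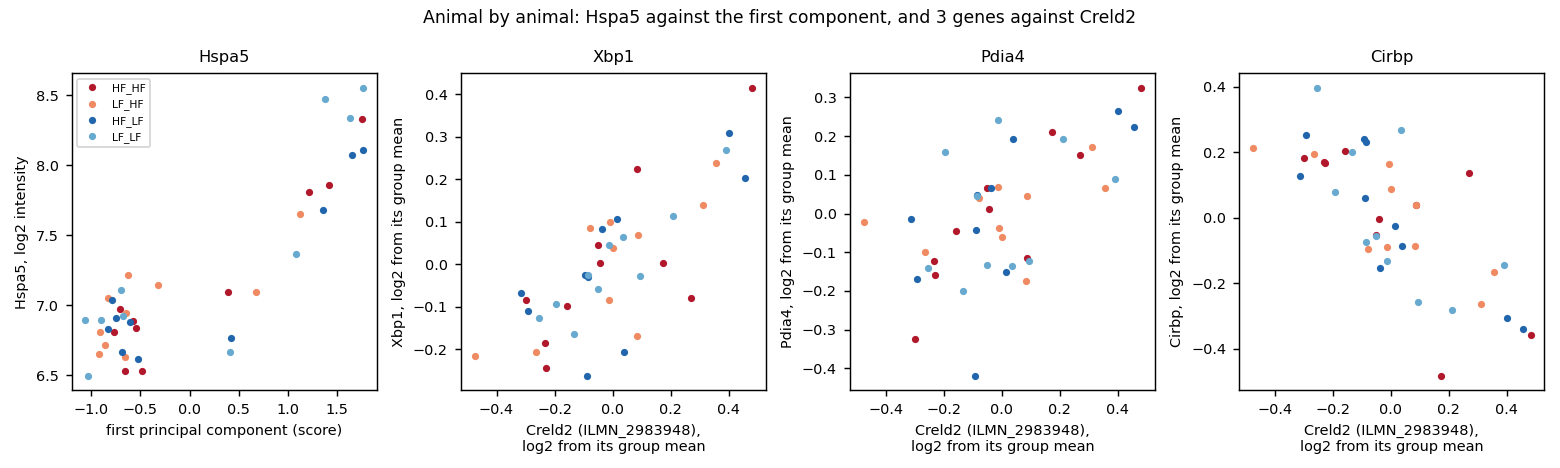
Each point is 1 animal, coloured by group. The left panel plots Hspa5 (log2 intensity) against the score on the first principal component, with 15 arrays right of the gap, and the other panels plot Xbp1, Pdia4 and Cirbp against Creld2 (ILMN_2983948), each as log2 distance from its group mean, where Xbp1 and Pdia4 run with Creld2 and Cirbp runs against it.

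Creld2 was also alike in animals of the same breeding cage. Of its variation within groups, 79.6% (ILMN_2983948) and 71.6% (ILMN_2757368) lay between cages, as did 67.6% for Pdia4, against a median of 36.6% over all kept probes and 36.1% expected where cages do not differ. These shares were higher than those of 99.99%, 99.93% and 99.73% of the kept probes. In an F test of cage within group, run over all probes after the values had been seen, the 2 Creld2 probes ranked 1 and 8 and Pdia4 ranked 34 of 14381, Cirbp ranked 2, and none passed adjustment (adjusted p = 0.534 for the first, 0% called, 2.46% at an unadjusted p under 0.05). Next after Cirbp came Rbm3, Dusp1, Jun and Chordc1, with 73.7% to 75.8% between cages, so a high share was not particular to Creld2 and Pdia4. For the other members the share ran from 26.3% (Trib3) to 55.0% (Hsp90b1), with Hspa5 at 35.1% and Chac1 at 53.8%. The component's own scores had 38.6% between cages.

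Cage means of Creld2 (ILMN_2983948) ran from 8.26 (cage 10, n = 1) to 8.76 (cage 23, n = 3) in HF_HF and from 8.57 (cage 9, n = 3) to 9.16 (cage 4, n = 2) in LF_HF. They ran from 8.16 (cage 20, n = 1) to 8.88 (cage 1, n = 2) in HF_LF and from 8.40 (cage 6, n = 2) to 8.83 (cage 4, n = 3) in LF_LF. Cage 4 thus led in both groups it contributed to, as it did with the other Creld2 probe (9.11 in LF_HF and 8.70 in LF_LF). Pdia4 was highest in cage 4 in LF_HF (9.02) but in cage 11 in LF_LF (8.90), and in HF_LF it was highest in cage 1 (8.91).

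Because each cage had 1 maternal diet, cage and maternal diet cannot be separated within a cage, but post-weaning diet can. Between LF_HF and LF_LF cage mates, Creld2 differed by 0.41 in cage 4 and 0.10 in cage 11 with ILMN_2757368, and by 0.33 and 0.30 with ILMN_2983948, and Pdia4 by 0.27 and 0.02. With cage as a fixed block, which uses only the 5 LF_HF and 5 LF_LF animals of these 2 cages, Creld2 differed by 0.26 (unadjusted p = 0.0251) and 0.31 (unadjusted p = 0.00377). Chac1 differed by -0.01 and 0.02 in those cages, and by 0.16, 0.32 and -0.11 between HF_HF and HF_LF animals of cages 10, 20 and 23. With cage as a fixed block its differences were 0.01 and 0.06, against 0.14 and 0.23 over all animals. Between HF_HF and HF_LF animals of cages 10, 20 and 23, Creld2 differed by -0.36, 0.22 and 0.07 with ILMN_2757368. With ILMN_2983948 it differed by -0.23, 0.50 and 0.37. The fixed block gave 0.01 and 0.27 for the 2 probes there, neither at an unadjusted p under 0.05.

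**Figure D5:**
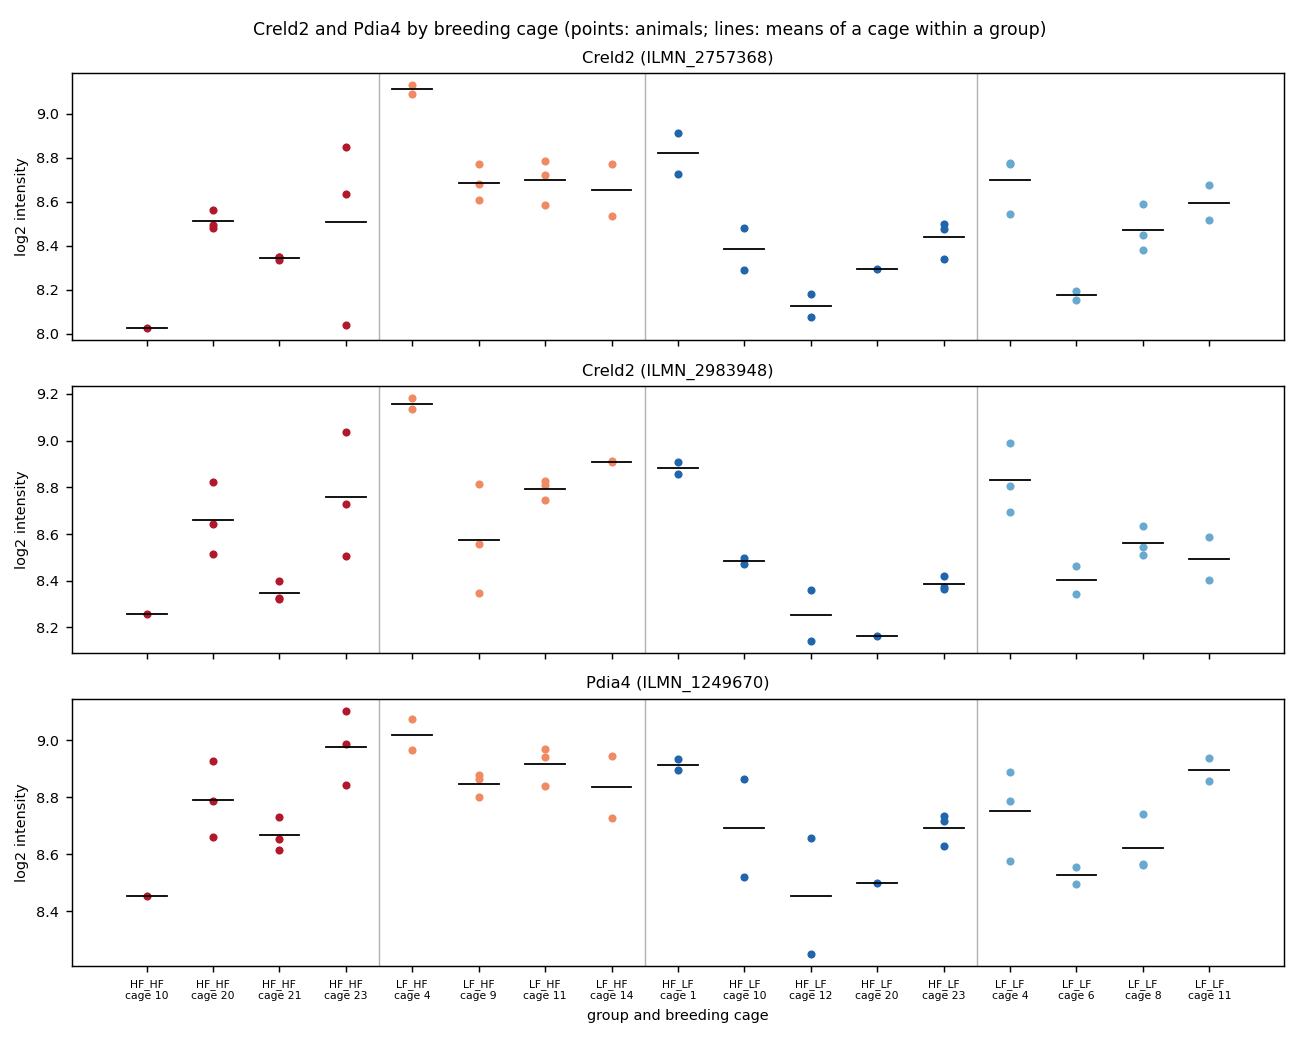
Log2 intensity of both Creld2 probes and Pdia4 by group and breeding cage, 1 point per animal and a line at the mean of each cage within a group. Cage 4 leads in LF_HF for all 3 probes, and in cages 4 and 11 the LF_HF mean lies above the LF_LF mean for each.

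Body measures from the labels were set against the genes within groups. The slopes on blood glucose, weight at 3 weeks and the second recorded body weight were called for 0 of 14381 probes each (0%), and the adjusted p of every member was above 0.99. The closest was Pdia4 with blood glucose (r = 0.31, permutation p = 0.0677; rho = 0.28, p = 0.0919; unadjusted slope p = 0.0651), and for Creld2 and blood glucose r was 0.07 and 0.24 with the 2 probes.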

How the data were processed

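Whole brain RNA of 40 male mice was hybridised to Illumina bead arrays. The authors extracted the intensities with BeadStudio and quantile normalised them over the 40 arrays, and the deposited values are linear intensities of 48.4 to 30357.2. Quantile normalisation gives all arrays the same distribution (sorted columns differed by at most 1.1), so a shift shared by most genes would not be seen, and the number of arrays limits the precision. Gene symbols came from the platform annotation, in which 23978 probes had 1 symbol or more and 1719 had none.

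Values were analysed as log2 with limma 3.58.1 in R 4.3.3 (lmFit and eBayes with a mean-variance trend), within the 20 arrays of each pair of groups, over all 40 for the interaction and the slopes, with Benjamini-Hochberg adjustment. Background was the 95th percentile of 1341 receptor probes on each array (81.6 to 90.9). All 10 genes and every probe of them are named, with the 3 pathway genes of smallest p in each comparison where none passed and the 10 named probes closest to an anchor gene. Xbp1, Pdia3 and Cirbp were singled out, and Creld2 made an anchor, after their values were seen. The genes, lists and tests were chosen with earlier results of these data known. Permutation p-values used 100000 permutations within groups, or within cages of a group where stated. Replicates are separate animals, some of which shared a cage. The fits were tested on simulated data, and the alternatives covered normalisation, the filter on dim probes, an offset, cage, components and left-out arrays or cages.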

Additional observations from a re-analysis of the deposited data

How the results depend on the processing

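No member's probe passed adjustment in any comparison of groups under any of the 19 to 23 alternatives for each, and 58 of 1055 differences changed sign. Over all probes, HF_HF against HF_LF called 1 probe with cyclic loess, with array weights or with the first component as covariate and 2 with the first 2 components (added after seeing the data), and the interaction called 1 without the filter. The slope on Hspa5 called 186 probes with the first component, against 8947, and that of Pdia4 on Hspa5 then reversed to 0.054, against -0.12. The slope on Chac1 called 256 with cyclic loess, 201 with the component and 18 without the 5 arrays that stood apart, against 6. The slope on Creld2 called 73 and 109 with cyclic loess and the component, against 5, and Pdia4 passed there (adjusted p = 0.019 and 0.00368). The cause was not tested. Creld2 (ILMN_2757368) ranged from -0.44 to -0.27 in HF_HF against LF_HF and from 0.18 to 0.36 in LF_HF against LF_LF, with an unadjusted p under 0.05 in 21 of 21 and 19 of 20 alternatives. The probe ILMN_2983948 ranged from -0.38 to -0.18 and from 0.18 to 0.33, with 19 of 21 (not without cage 4 or cage 21) and 12 of 20. Chac1 ranged from 0.06 (cage as a fixed block) to 0.38 (without cage 23) in HF_HF against HF_LF, and Hspa5 in HF_LF against LF_LF changed sign without cage 4 (0.07). No paired analysis was possible because replicate numbers only follow the order of the samples. Cage mates were compared with cage as a fixed block.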
